A study of Mus musculus with 39 samples.

Results

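The ribosomal protein genes and pseudogenes of the mouse were taken by name from the 23412 genes listed in bulk RNA-seq files: names made of Rpl or Rps and a number, the stalk genes Rplp0 to Rplp2, and ribosomal protein names that carry a pseudogene number, without the kinases whose names start with Rps6k. They numbered 88, of which 83 were genes and 5 were pseudogenes by name. The RefSeq annotation differs for some: it has Rps4y2, counted here as a gene, as a transcribed pseudogene. It has Rpl31-ps12 and Rpl34-ps1, counted here as pseudogenes, as protein-coding. The messenger RNA came from 39 libraries of wild-type mice in a model of jaw-muscle pain felt as headache. Of these, 22 were from dura mater, which covers the brain beneath the skull, and 17 from masseter, a muscle that closes the jaw. The mice had been given saline or collagenase type I, which breaks down collagen, in the temporal muscle on the side of the head or in the masseter.

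The groups differed in tissue, agent, site and day. The dura libraries were all of day 2: 12 from mice with 10 U of collagenase in the temporal muscle, 6 from mice with saline whose site is not in the labels (the unnamed site; their titles read naive), and 4 from mice with saline in the temporal muscle. The masseter collagenase libraries, with doses of 0.2 to 0.5 U given 4 times, were 3 of day 28 injected in the temporal muscle, 3 of day 38 injected in the masseter and 3 of day 52 injected in the masseter. The masseter saline libraries, injected in the masseter, were 4 of day 38 and 4 of day 28. Day 52 had no saline group, and no masseter library came from a mouse with saline in the temporal muscle. The labels do not say whether each library was a separate animal, so p-values measure the spread between libraries.

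The ribosome is built from a small and a large subunit, each of which joins ribosomal RNA with many small proteins made in nearly equal numbers. The messenger RNAs of these proteins are short, abundant and present in every cell, and they have been copied back into the genome many times as processed pseudogenes, which lack introns and can differ from their parent gene by a few bases. A few ribosomal proteins have a second, tissue-restricted gene. The best known is Rpl3l, which takes the place of Rpl3 in heart and skeletal muscle.

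The libraries had been sequenced in different ways. Effective length is the number of positions at which a sequenced fragment, or a read, can start. The difference between a gene's length and its effective length had a median of 212.5 to 236.99 bases in 25 libraries, read here as paired-end. In 14 libraries, read here as single-end, it was 49.49 to 49.55 bases. Reads had 50 bases in single-end and 100 in paired-end libraries. The single-end gap is thus near the length of a read, so effective length is not on one scale across layouts. All 10 dura saline libraries and the 4 masseter saline libraries of day 28 were single-end, and every other library was paired-end. In dura, read layout and collagenase therefore cannot be told apart. The dura groups also differed in the summed TPM of 2 sex-linked genes, Xist and Ddx3y. It was 25.05 to 67.27 after collagenase, 9.42 to 80.92 after saline at the unnamed site and 5.29 to 12.79 after saline in the temporal muscle. Xist is found in females and Ddx3y in males, so their sum does not tell the sexes apart. The unnamed-site libraries are named F1 to F3 and M1 to M3. The part of sex in the dura results was not tested. A library held 12.1 to 32.3 M counts in total (M, mega). The tissue labels were set against markers: 6 skeletal muscle genes summed to 100092 to 177063 TPM in masseter and 8.71 to 55811 TPM in dura. The 4 genes listed for fibroblasts of the meninges summed to 1614 to 12420 TPM in dura and 379 to 2314 TPM in masseter. The ranges of the tissues overlapped for the fibroblast genes and not for the muscle genes.

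For 5 families the sequences are printed to show how alike a gene and its copy are. Each line gives 90 coding bases, 5′ to 3′, from the transcripts of GENCODE vM21 (build GRCm38), and capitals mark the bases that differ between the gene and its copy. Rpl26, Rpl31, Rpl34, Rps15a and Rps27 encode proteins of the large (Rpl) and small (Rps) subunit. The copies whose names start with Gm fall outside the naming rule and were taken because they share at least 100 windows of 50 bases with a gene, with values of these data known.
Rpl26: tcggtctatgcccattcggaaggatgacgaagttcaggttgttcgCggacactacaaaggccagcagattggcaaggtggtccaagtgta
Gm15772: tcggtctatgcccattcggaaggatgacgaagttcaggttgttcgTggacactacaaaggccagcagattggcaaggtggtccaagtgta
Rpl31: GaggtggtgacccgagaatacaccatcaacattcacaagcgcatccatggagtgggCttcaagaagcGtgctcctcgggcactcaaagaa
Rpl31-ps12: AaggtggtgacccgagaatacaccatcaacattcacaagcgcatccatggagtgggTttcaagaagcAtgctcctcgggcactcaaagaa
Rpl34: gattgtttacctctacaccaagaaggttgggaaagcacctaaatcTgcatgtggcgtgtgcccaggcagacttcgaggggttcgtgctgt
Rpl34-ps1: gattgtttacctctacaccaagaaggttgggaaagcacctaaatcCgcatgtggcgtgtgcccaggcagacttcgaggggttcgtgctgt
Rps15a: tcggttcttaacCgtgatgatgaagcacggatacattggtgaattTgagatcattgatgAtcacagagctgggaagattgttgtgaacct
Rps15a-ps6: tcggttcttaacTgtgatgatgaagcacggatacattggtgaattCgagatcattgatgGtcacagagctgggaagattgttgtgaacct
Rps27: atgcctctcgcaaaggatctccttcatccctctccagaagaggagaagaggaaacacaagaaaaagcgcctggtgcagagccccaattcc
Gm9846: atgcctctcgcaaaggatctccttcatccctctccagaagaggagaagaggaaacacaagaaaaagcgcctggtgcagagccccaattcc

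Over the whole coding sequence, Rpl26 (chr11:68901583-68906989) and Gm15772, a processed pseudogene (chr5:3236431-3236868), differed at 2 of 435 bases. Rpl31 (chr1:39367842-39371911) and Rpl31-ps12 (chr16:16819749-16820123) differed at 4 of 375 bases. Rpl34 (chr3:130726831-130730398) and Rpl34-ps1 (chr6:71124610-71124963) differed at 2 of 351 bases. Rps15a (chr7:118104372-118116188) differed from Rps15a-ps6 (chr11:6172644-6173036) at 5 of 390 bases and from Rps15a-ps4 (chr4:132219988-132220489) at 9. Rps27 (chr3:90212522-90213651) and Gm9846, annotated as protein-coding (chr9:114982366-114982739), were identical over all 252 coding bases. The fifth pseudogene of the naming rule, Rps19-ps3 (chr4:147821777-147822202), was 95.34% identical to Rps19. A read that covers none of the differing bases fits the gene and the copy equally well, and RSEM, which made the deposited values, divides such reads by estimation.

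The ribosomal protein genes took a larger mean share of counts in each dura group than in each masseter group. The 83 genes took 2.57% ± 0.34 of all counts in dura after collagenase (SD, n = 12), 3.12% ± 0.17 after saline at the unnamed site (n = 6) and 2.95% ± 0.25 after saline in the temporal muscle (n = 4). In masseter they took 2.08% ± 0.02 after collagenase in the temporal muscle, 2.03% ± 0.14 after collagenase in the masseter at day 38 and 2.03% ± 0.14 at day 52 (n = 3 each), against 1.76% ± 0.11 after saline at day 38 and 2.19% ± 0.15 after saline at day 28 (n = 4 each). On the TPM scale, transcripts per M transcripts, the order in dura turned round. TPM divides by effective length, which is not on one scale across layouts. The genes made up 9.85% ± 0.94 of TPM after collagenase, 9.14% ± 0.34 after saline at the unnamed site and 8.57% ± 0.81 after saline in the temporal muscle. Dura collagenase libraries 7 and 1 held the smallest shares of counts of their group, and they also held 1165 and 1047 TPM of Gad1, a neuronal gene, against 0.6 to 6.94 TPM in the other 10. Gad1 is 1 of 4 neuronal markers listed, and their sum was 101.59 to 3461 TPM in this group, with a median of 475.44. The sum was 239.45 to 423.86 TPM after saline at the unnamed site and 480.78 to 816.83 TPM after saline in the temporal muscle. The part of neuronal RNA in the share was not tested.

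**Figure D1:**
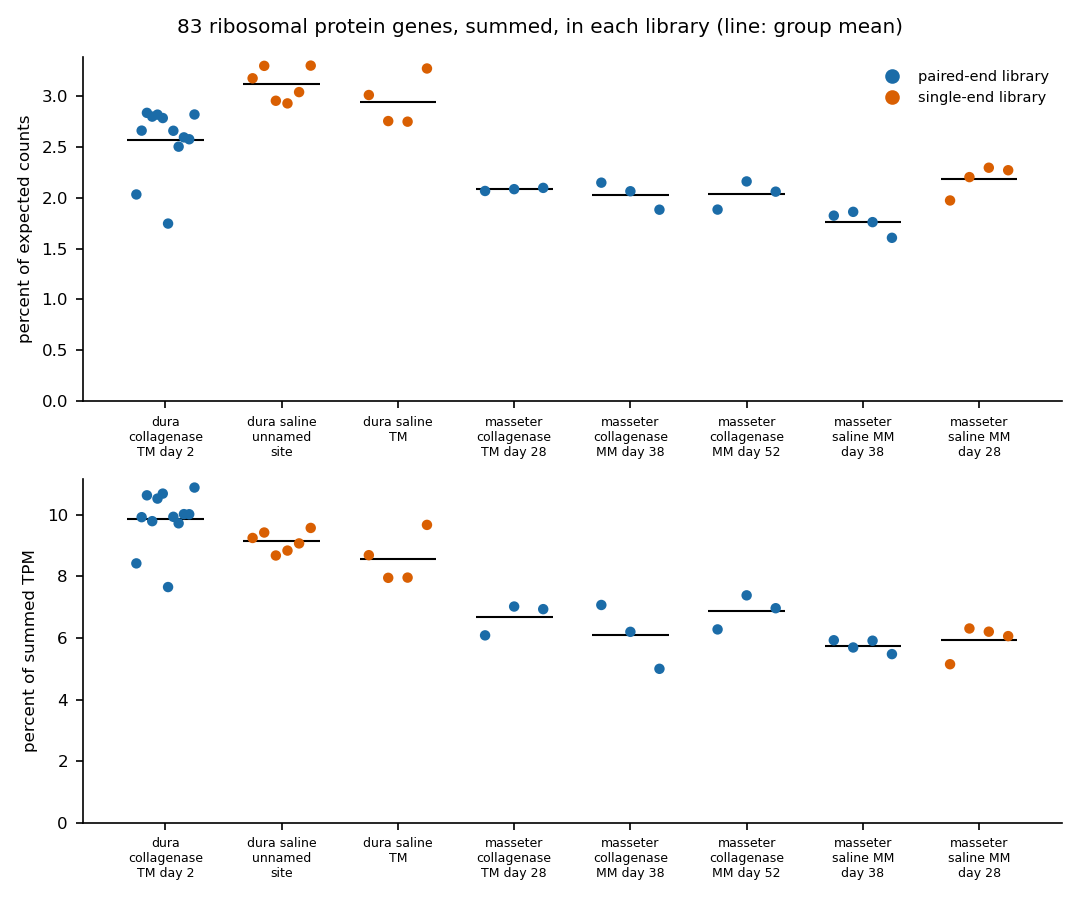
Share of all counts (top) and of all TPM (bottom) taken by the 83 ribosomal protein genes, in percent, in each of the 39 libraries by group, with the group mean as a line; blue points are paired-end and orange points single-end libraries. The dura collagenase group lies below both dura saline groups by counts (2.57% against 3.12% and 2.95%) and above both by TPM (9.85% against 9.14% and 8.57%).

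Rplp1, the acidic stalk protein that recruits elongation factors, was the gene with the highest mean level over the 39 libraries, at 2687 TPM, followed by Rpl41 at 2475, Rps29 at 2243, Rps15 at 1931 and Rpl28 at 1834 TPM. Rpl41 encodes a peptide that bridges the subunits. Rplp1 ranged from 1538 TPM in a masseter library after collagenase to 3701 TPM in a dura library after saline in the temporal muscle. At the other end, Rpl10l, a retrocopy of Rpl10 that is known from testis, had 0 counts in all 39 libraries, which allows up to 0.0927 to 0.249 counts per M counts (CPM) by library.

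After collagenase, dura showed both higher and lower ribosomal protein genes than after saline in the temporal muscle. Of 82 genes tested, 9 were higher and 19 lower at an adjusted p under 0.05 in edgeR's quasi-likelihood test with Benjamini-Hochberg adjustment over all genes, which is what "called" means here. The same test called 24.4% of all genes, 13.3% higher and 11.1% lower. The median log2 fold change of the 82 genes was -0.13, against 0.06 over all genes tested, and 26 of 82 were above 0. Of the 5 pseudogenes, 1 was higher and 4 were lower. Among the genes called lower were Rpl3, a core protein of the large subunit, Rplp1, and Rps18, Rps25 and Rps6 of the small subunit. Rps6 is the subunit's best-known phosphorylated protein.

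Rplp1 had 2387, 3183 and 3640 TPM in dura after collagenase (lowest, median and highest), against 3111, 2793, 3454 and 3701 TPM after saline in the temporal muscle. These ranges overlapped. On the scale of counts it fell, with a log2 fold change of -0.61 ± 0.11 (SE, adjusted p = 0.000405, edgeR), while Rplp0, the stalk's base, was at -0.14 ± 0.16 (adjusted p = 0.547) and Rplp2, its other acidic protein, at -0.15 ± 0.13 (adjusted p = 0.391). With effective length as an offset Rplp1 was at 0.0072 and Rplp2 at 0.52. Rpl3 had 624.7, 889.7 and 1101 TPM after collagenase, against 1197, 1183, 1301 and 1405 TPM after saline. All 12 collagenase libraries lay below all 4 saline libraries, and the log2 fold change was -0.53 ± 0.09 (adjusted p = 0.000185, edgeR).

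In dura after collagenase against saline in the temporal muscle, most members whose log2 fold change reached 1 in size share sequence with a copy, 7 of 8. Members of the same family are counted apart in this. Rps2 is among the 7, but it was at 1.33 both alone and summed with its copy. Rpl31-ps12 had 4.4, 6.87 and 8.17 TPM in dura after collagenase (lowest, median and highest), against 792, 809.7, 814.6 and 815 TPM after saline in the temporal muscle. Its log2 fold change was -7.45 ± 0.11 (adjusted p = 1.38e-21, edgeR). In masseter, Rpl31-ps12 had 2.39, 2.18, 2.18 and 4.32 TPM in the paired-end saline libraries of day 38, against 398.1, 489.8, 376.7 and 406.5 TPM in the single-end saline libraries of day 28. No collagenase was given in either masseter group, and the log2 fold change was -7.70 ± 0.38 (adjusted p = 8.42e-09, edgeR). The 9 masseter libraries given collagenase, all paired-end, held 1.26 to 5.36 TPM.

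Rpl34 and Rpl34-ps1 moved in opposite ways. Rpl34 had 27.58, 54.19 and 67.64 TPM in dura after collagenase, against 713.6, 931.6, 769.9 and 1068 TPM after saline in the temporal muscle, a log2 fold change of -3.86 ± 0.31 (adjusted p = 1.81e-08, edgeR). Rpl34-ps1 had 1061, 1439 and 1645 TPM after collagenase, against 306.6, 0, 0 and 28.97 TPM after saline, with 3.39 ± 0.98 on the log2 scale (adjusted p = 0.0153, edgeR). Between the masseter saline groups of day 38 and day 28, Rpl34 was at -3.74 ± 0.11 (adjusted p = 3.23e-11) and Rpl34-ps1 at 5.31 ± 0.95 (adjusted p = 0.00154, edgeR). Their summed counts did not show these differences. In dura the sum was at -0.01 on the log2 scale (adjusted p = 0.941), and in masseter it was at -0.48 (adjusted p = 0.00177, edgeR). The single-end libraries after saline at the unnamed site differed among themselves, with Rpl34 at 53.81, 386.7 and 757.7 TPM and Rpl34-ps1 at 317.2, 840.3 and 1100 TPM.

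Rpl26 was listed at 0 in all 14 single-end libraries. In dura after collagenase it had 109.5, 190.9 and 319.4 expected counts (lowest, median and highest), and in paired-end masseter libraries it had 74.6 to 203. Against a floor of 3 counts in each library, Rpl26 was at least 76.6-fold higher in dura after collagenase than in the temporal muscle saline group. In masseter saline it was at least 41.0-fold higher at day 38 than at day 28. Gm15772 held nearly all of the family's counts in every group, and Rpl26 held 2.93% ± 0.83 of them in dura after collagenase (SD, n = 12). Summed with Gm15772, Rpl26 was at -0.27 on the log2 scale in dura (adjusted p = 0.0444) and at -0.22 between the masseter saline groups (adjusted p = 0.0636, edgeR). Once the copy was added, the sign of Rpl26 turned round in both. With the effective length offset as well, the sum was above 0 again, at 0.21 in dura (adjusted p = 0.0998, edgeR). Between the masseter saline groups it was then at 0.31 (adjusted p = 0.0119, edgeR).

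Rps15a and its named pseudogenes split in the same way. Rps15a took 96.8% ± 0.69 of the summed counts of Rps15a, Rps15a-ps4 and Rps15a-ps6 in dura after collagenase (SD, n = 12), 57.8% ± 1.15 after saline at the unnamed site (n = 6) and 63.4% ± 7.92 after saline in the temporal muscle (n = 4). In masseter it took 96.8% ± 0.38 after saline at day 38 and 58.0% ± 0.69 after saline at day 28 (n = 4 each). Rps15a was called higher in both, at 0.35 in dura and 0.37 in masseter on the log2 scale, and the sum with the pseudogenes was called lower in both, at -0.27 (adjusted p = 0.0125) and -0.37 (adjusted p = 0.00399, edgeR). Rps15a-ps6 had 9.3, 17.41 and 24.27 TPM in dura after collagenase, against 272, 181.8, 150.5 and 205.8 TPM after saline in the temporal muscle. Rpl31 likewise was called higher, at 0.94 in dura and 0.46 in masseter, and its sum with Rpl31-ps12 was at -0.16 (adjusted p = 0.246) and -0.31 (adjusted p = 0.00464, edgeR).

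In other families the split between gene and copy differed less between the layouts. Rps27, whose coding sequence is that of Gm9846, took 1.04% ± 0.44 of the pair's counts in dura after collagenase and 1.62% ± 0.60 after saline in the temporal muscle. In masseter it took 0.398% ± 0.090 after saline at day 38 and 0.695% ± 0.463 after saline at day 28. Gm9846 held 2782, 3770 and 4303 TPM in dura after collagenase, so that a level of Rps27 alone, 9.41 to 73.03 TPM there, leaves out nearly all of the reads of this protein. Rps19-ps3, less like its gene, was lower by 0.99 on the log2 scale in dura after collagenase than after saline in the temporal muscle (-0.99 ± 0.23, adjusted p = 0.00379, edgeR) and at -1.25 ± 0.45 between the masseter saline groups (adjusted p = 0.0564, edgeR). Rps19 itself was called lower in both, at -0.49 and -0.76.

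**Figure D2:**
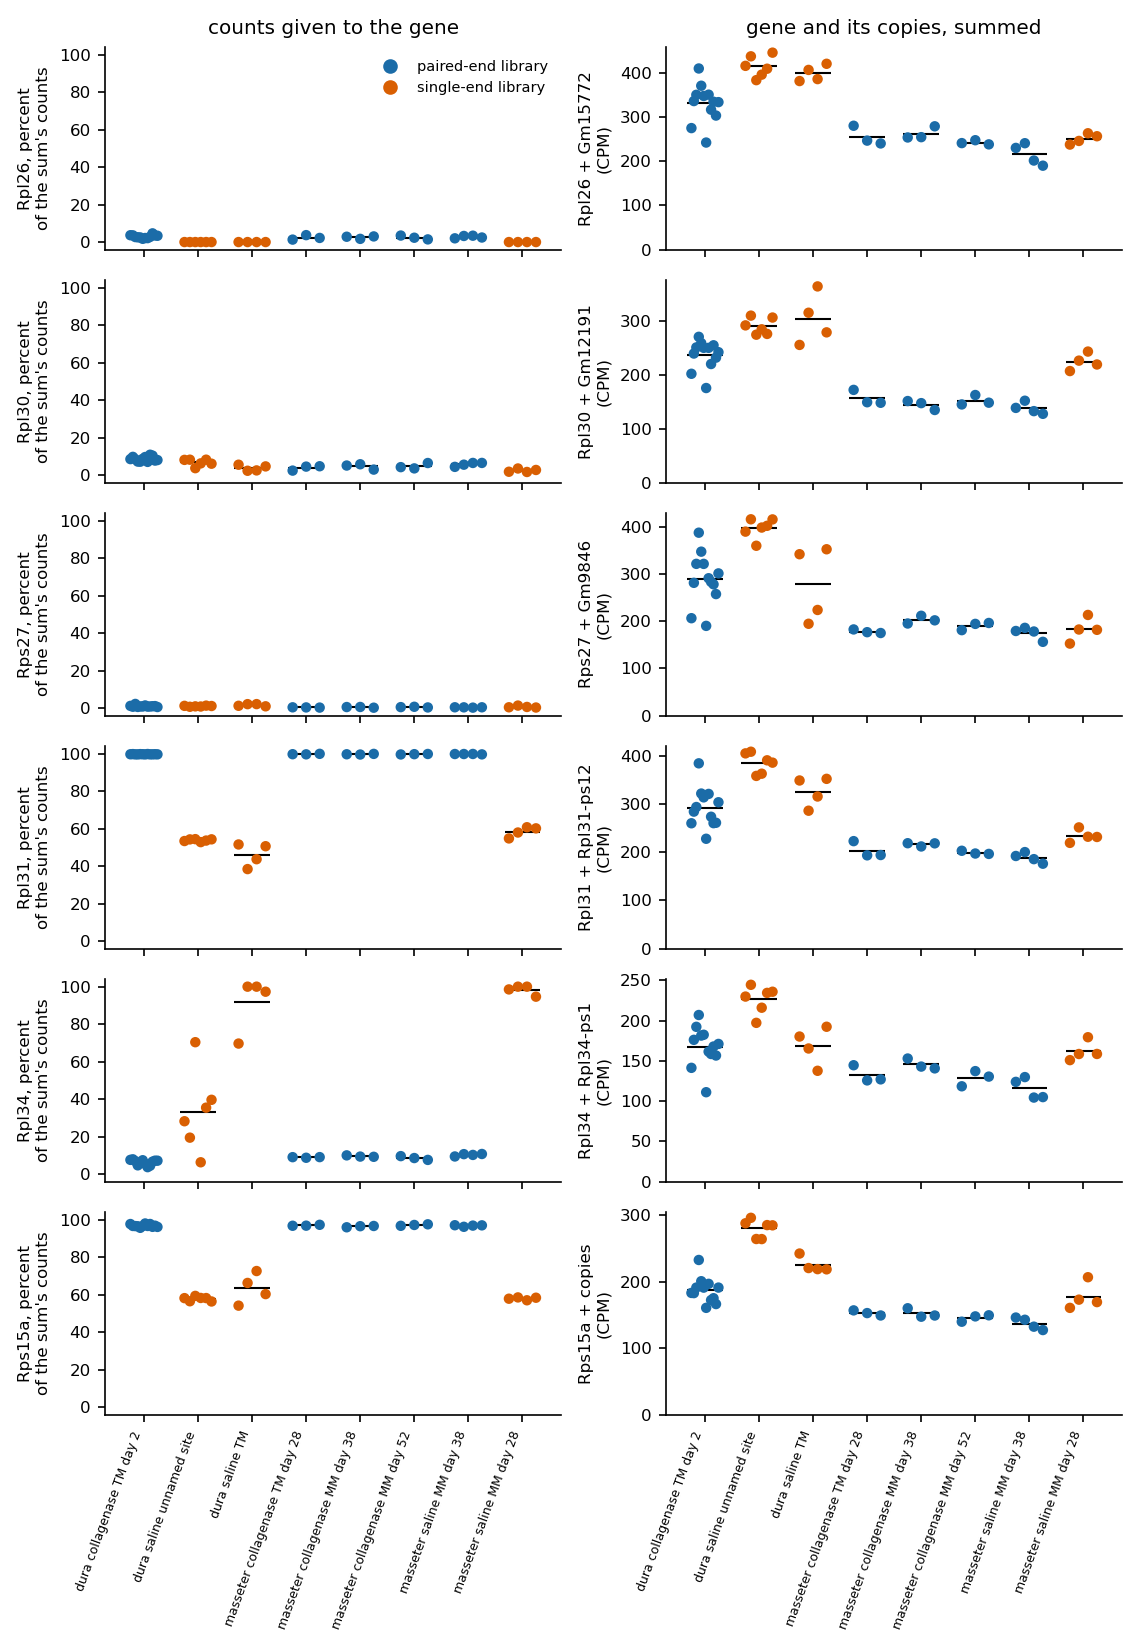
The share of a family's counts given to the gene, in percent (left), and the CPM of gene and copies summed (right), for Rpl26, Rpl30, Rps27, Rpl31, Rpl34 and Rps15a in each library by group, with group means as lines; blue points are paired-end and orange points single-end libraries. Rpl31 takes 99.7% of its family's counts in dura after collagenase and 46.1% after saline in the temporal muscle, and Rpl34 takes 6.32% and 91.7%, while the summed CPM of Rpl34 and its copy average 167 and 169.

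Members that share windows with other genes had the largest fold changes in the contrasts across read layouts, and larger medians within single-end libraries too. In dura, collagenase against saline in the temporal muscle, the median absolute log2 fold change was 0.94 for the 17 members with at least 10% of their 50-base windows in another gene, 0.19 for the 9 with fewer and 0.22 for the 61 with none. Fold changes of at least 1 in size (log2) were found in 7, 0 and 1 of them. Between the masseter saline groups of day 38 and day 28 the medians were 0.76, 0.35 and 0.31, with 7, 0 and 0 members at or above 1. In masseter after collagenase against saline at day 38, where both groups were paired-end, the medians were 0.23, 0.26 and 0.29 and no member reached 1. Between the dura saline groups, both single-end, the medians were 0.45, 0.09 and 0.18, with 3, 0 and 2 members at or above 1. Between masseter at day 28 and dura after saline in the temporal muscle, also single-end, they were 0.76, 0.42 and 0.49, with 5, 0 and 9. The dura contrast of collagenase with saline in the temporal muscle and the masseter saline contrast share no library. Across 87 members their log2 fold changes had a Pearson r of 0.94 and a Spearman rho of 0.55. Rpl26 entered at 10.77 and 10.04, sizes that are not measured because the single-end group of each contrast was at 0. Across the 61 members with no shared window, r was 0.50 and rho 0.33. The same dura contrast set against masseter collagenase at day 38, a contrast within paired-end libraries, gave -0.51 and -0.33 across these 61. These points are genes, not independent replicates.

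The masseter saline groups showed the same lean to lower counts in paired-end libraries as dura did, without collagenase in either group. Between day 38 and day 28, 6 of 82 ribosomal protein genes were higher and 44 were lower, where 24.6% of all genes were called, 11.7% higher and 12.9% lower. The median log2 fold change was -0.26, against -0.05 over all genes. Rps18, of the small subunit's head, had 187, 198.2, 180.8 and 172.6 CPM at day 38, against 286.5, 320.4, 353.3 and 306.7 CPM at day 28, with no overlap (-0.78 ± 0.07, adjusted p = 1.08e-05, edgeR). Rpl38, a short large-subunit gene known from skeletal patterning in mice, had 62.54, 72.04, 56.29 and 55.41 CPM, against 107.5, 96.04, 118.4 and 109.8 CPM (-0.81 ± 0.10, adjusted p = 0.000142, edgeR). With the effective length offset Rpl38 was at 0.29. These groups differed in day and layout, and also in Xist, a transcript of the inactive X chromosome, with 0.01 to 0.03 TPM at day 38 and 29.5 to 37.6 TPM at day 28. The part of each in these results was not tested. Without saline library 3 of day 38, 33 genes were called in place of 50.

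Dura after collagenase, compared with saline at the unnamed site, had 6 genes higher and 45 lower of 82, where 36.7% of all genes were called, 21.4% higher and 15.3% lower, with a median of -0.29 against 0.06. All 4 pseudogenes called there were lower. Masseter after collagenase in the temporal muscle, compared with the single-end saline libraries of the same day, had 6 higher and 7 lower of 82, where 2.95% of all genes were called, 1.17% higher and 1.77% lower, with a median of -0.12 against -0.03. Each of these contrasts shares a group with one of the contrasts above, so the counts are not independent of them.

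Effective length separated the layouts most for the shortest genes. In single-end libraries it was near length minus a read, and in paired-end libraries it lay further below length. TPM and the offset therefore scale short genes differently by layout. Rpl38 had an effective length of 105 bases in paired-end libraries, 44.3% of its 237 bases in single-end libraries. Rps29, a zinc-binding protein of the small subunit, had 172 bases, 50.6% of 341. Entered as an offset, effective length turned the balance of calls round in every contrast across layouts. In dura after collagenase against saline in the temporal muscle, 31 genes were then higher and 5 lower, with a median of 0.21, where 11.3% of all genes were higher and 9.92% lower. Against saline at the unnamed site 21 were higher and 12 lower, with a median of 0.06, where 18.6% of all genes were higher and 13.1% lower. Between masseter saline at day 38 and day 28, 26 were higher and 9 lower, with a median of 0.08, where 11.8% of all genes were higher and 11.7% lower. In masseter of mice given collagenase in the temporal muscle, against saline of day 28, 25 were higher and 1 lower, with a median of 0.24, where 1.58% of all genes were higher and 0.983% lower. With copies also summed into their genes, the dura contrast with saline in the temporal muscle gave 26 higher and 5 lower and the masseter saline contrast 24 higher and 10 lower, and the shares over all genes were 11.2% and 9.89% in dura and 11.8% and 11.7% in masseter.

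With the offset, the gain lay with the shorter genes. In dura after collagenase against saline in the temporal muscle, the 41 shorter genes (302.5 to 703 bases) had a median log2 fold change of 0.42, and 39 of 41 were above 0. The 41 longer genes (710 to 5134 bases) had a median of -0.00, and 20 of 41 were above 0. Without the offset the medians were -0.14 and -0.11. Between masseter saline at day 38 and day 28 the offset gave 0.25 for shorter and 0.01 for longer genes, against -0.36 and -0.20 without it. In masseter after collagenase against saline at day 38, both paired-end, the offset left the medians near where they were, at 0.28 and 0.23 with it and 0.31 and 0.24 without. The direction of the ribosomal protein genes as a set in dura after collagenase thus differed between the scalings, and neither sign held under both.

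**Figure D3:**
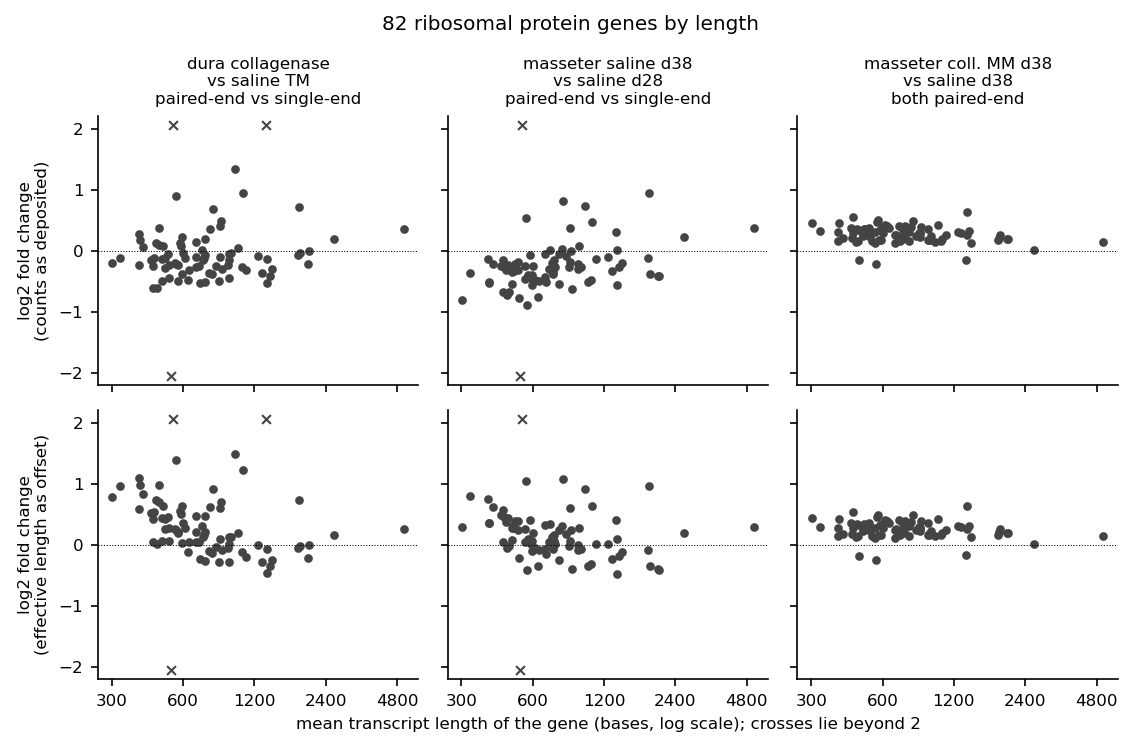
Log2 fold change of each ribosomal protein gene against its length in bases (log axis) in contrasts across and within read layouts, without (top) and with (bottom) the effective length offset; each point is a gene, and crosses lie beyond 2 in either direction. With the offset the shorter genes lie above the longer ones in dura after collagenase (medians 0.42 and -0.00), and in masseter collagenase against saline at day 38 the points barely move (0.31 and 0.24 without the offset, 0.28 and 0.23 with it).

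**Figure D4:**
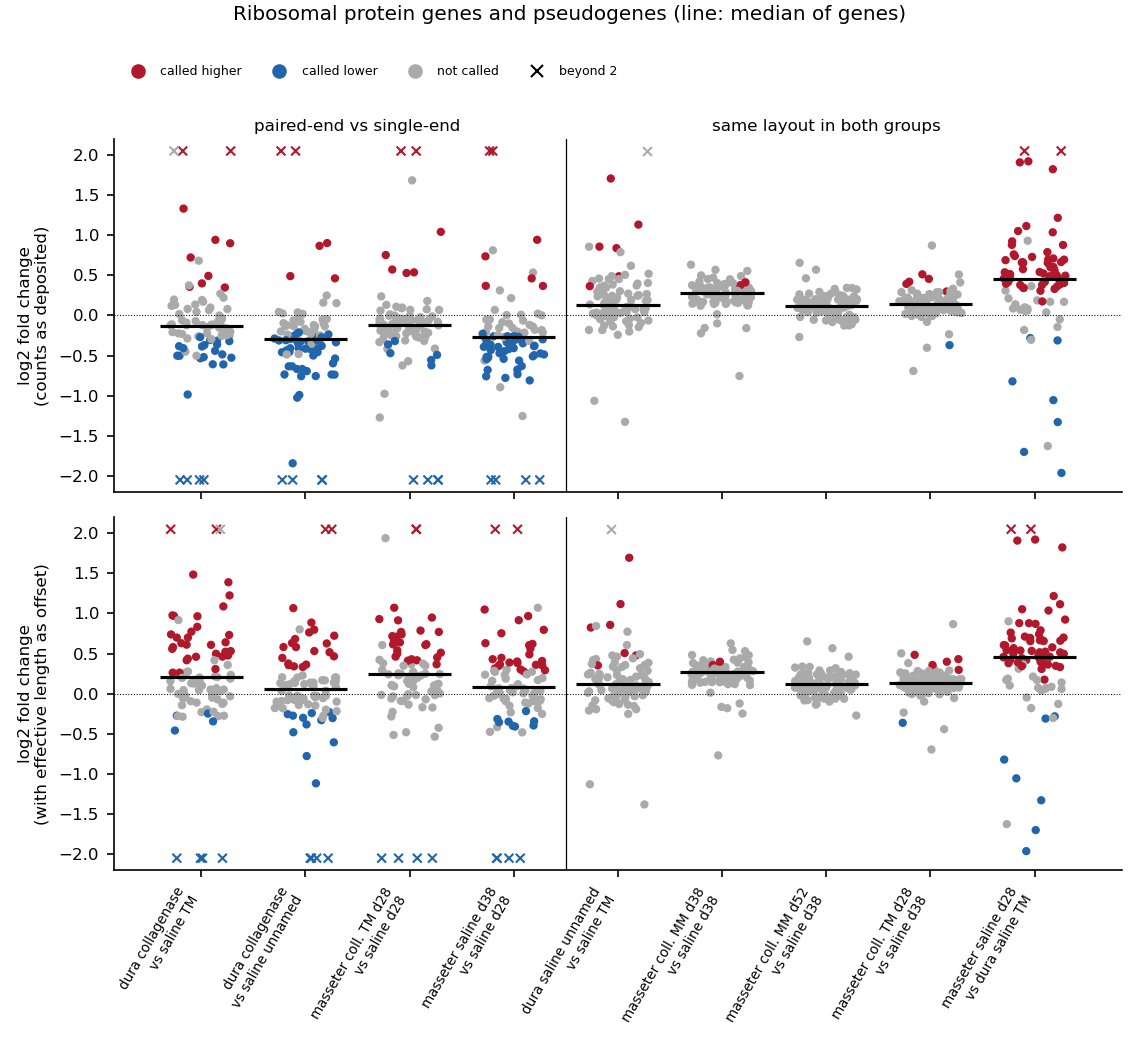
Log2 fold changes of the ribosomal protein genes and pseudogenes in each of 9 comparisons, without (top) and with (bottom) the effective length offset; each point is a member, red called higher, blue called lower and grey not called, crosses lie beyond 2, and the line is the median of the genes. In dura after collagenase against saline in the temporal muscle the median is 0.21 with the offset and -0.13 without it, between masseter saline at day 38 and day 28 it is 0.08 and -0.26, and in masseter after collagenase against saline at day 38 it is 0.27 and 0.28.

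Rps2 and Rpl21 were higher in the paired-end groups of both tissues. Rps2, a small-subunit protein at the entry of the messenger RNA channel, had 1151, 1461 and 1793 TPM in dura after collagenase (lowest, median and highest), 638.1, 718.8 and 778.2 TPM after saline at the unnamed site, and 542.1, 558.1, 518.2 and 566.8 TPM after saline in the temporal muscle. No library of the collagenase group overlapped either saline group. The log2 fold change was 1.33 ± 0.14 over the temporal muscle saline group (adjusted p = 1.15e-06) and 0.90 ± 0.12 over the unnamed-site saline group (adjusted p = 1.26e-05, edgeR). In masseter without collagenase, Rps2 had 1759, 1659, 1782 and 1640 TPM at day 38, against 931.5, 995.8, 1142 and 1057 TPM at day 28 (0.74 ± 0.08, adjusted p = 4.85e-05, edgeR). With copies summed and the effective length offset, the values were 1.49 in dura over the temporal muscle saline group and 0.92 in masseter saline. Within the paired-end masseter groups, Rps2 was at 0.15 ± 0.09 after collagenase in the masseter at day 38, -0.05 ± 0.09 at day 52 and 0.02 ± 0.09 after collagenase in the temporal muscle, none called.

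Rpl21, of the large subunit, had 293.4, 490.6 and 624.9 TPM in dura after collagenase, 259.5, 270.2 and 298.5 TPM after saline at the unnamed site, and 289.3, 276.5, 400.7 and 295.4 TPM after saline in the temporal muscle. The groups overlapped at their edges, and the log2 fold change was 0.72 ± 0.16 over the temporal muscle saline group (adjusted p = 0.00195, edgeR). In masseter saline, Rpl21 had 244.3, 230.1, 254.9 and 227.6 TPM at day 38, against 125.8, 150.4, 140.4 and 141.6 TPM at day 28, with no overlap (0.94 ± 0.09, adjusted p = 1.73e-05, edgeR).

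Within one layout, most ribosomal protein genes lay slightly higher in masseter at day 38 after collagenase than after saline, and few passed the test. Of 82 genes, 79 had a log2 fold change above 0, with a median of 0.28 against 0.01 over all genes, but 2 genes were called, both higher, where 0.867% of all genes were called, 0.334% higher and 0.532% lower. Rps9, which is needed early in small-subunit assembly, had 356.3, 322.7 and 339.2 CPM after collagenase, against 255, 285.2, 242.9 and 237.6 CPM after saline (0.41 ± 0.08, adjusted p = 0.0277, edgeR). Rps18 had 250.8, 237.8 and 230.9 CPM, against 187, 198.2, 180.8 and 172.6 CPM (0.38 ± 0.08, adjusted p = 0.0414, edgeR). In both genes every collagenase library lay above every saline library. At an unadjusted p under 0.05 the edgeR test had 55 genes higher and 0 lower. Of all 14652 genes tested, 2603 passed that limit in either direction. The edgeR test called no pseudogene, and 1 was higher at an unadjusted p under 0.05.

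The size of that count hung on the fit. DESeq2 called 33 genes higher, where it called 1.95% of all genes higher and 2.95% lower. Limma on log2(TPM + 1) called 0, with a median of 0.07 against -0.15 over all genes, and the 2 groups fitted alone called 0. These fits called 0.137% and 0.101% of all genes. Leaving out saline library 2 gave 27 called genes, and leaving out any of the other 6 libraries gave 0. Other parts of the translation machinery, listed from textbook knowledge, had medians nearer 0: the 76 genes of mitochondrial ribosomal proteins had a median of 0.00, 34 ribosome biogenesis genes -0.05 and 20 translation factors 0.17, with none called. The difference between these lists was not tested.

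At day 52, with the saline group of day 38 as the nearest control, edgeR called no ribosomal protein gene where 0.758% of all genes were called. DESeq2 called 3, where it called 4.17% of all genes. The median log2 fold change was 0.12 against 0.01 over all genes, and 66 of 82 genes were above 0. At an unadjusted p under 0.05 the edgeR test had 22 ribosomal protein genes higher and 1 lower. Of all 14652 genes tested, 2314 passed that limit in either direction. Rpl38 was at 0.46 ± 0.11 (adjusted p = 0.0718, edgeR), near its value at day 38 of 0.45 ± 0.11 (adjusted p = 0.0694). Both days were compared with the same 4 saline libraries.

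Masseter at day 28 after collagenase in the temporal muscle, a muscle not itself injected, had 5 genes higher and 1 lower than saline at day 38, where 10.9% of all genes were called, 5.12% higher and 5.79% lower. The median was 0.14 against 0.01, and 75 of 82 genes were above 0. Rpl38 had 97.67, 85.01 and 80.83 CPM after collagenase, against 62.54, 72.04, 56.29 and 55.41 CPM after saline (0.51 ± 0.11, adjusted p = 0.0102, edgeR). Rps12 had 328.4, 269.9 and 254.6 CPM, against 227, 237.9, 196.7 and 188.2 CPM (0.42 ± 0.11, adjusted p = 0.0257, edgeR). In both, the groups did not overlap. Rpl36a, Rpl39 and Rpl23, all of the large subunit, rose by 0.46, 0.39 and 0.30 on the log2 scale.

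The gene that fell there was Rpl7l1, a paralog of Rpl7 that works in ribosome biogenesis. It had 43.58, 46.31 and 54.99 CPM after collagenase in the temporal muscle, against 60.99, 59.57, 67.02 and 62.06 CPM after saline at day 38 (-0.37 ± 0.09, adjusted p = 0.0136, edgeR). The groups also differed in neutrophil markers, all 3 of which were present, with a sum of 225 to 2608 TPM after collagenase and 2.64 to 25.5 TPM after saline, and in Xist, with 36.8 to 43.9 TPM and 0.01 to 0.03 TPM. Their part in these calls was not tested. DESeq2 called 16 genes and limma 2, where they called 14.9% and 3.73% of all genes. Without collagenase library 11 there was 1 call and without library 12 there were 2; without saline library 2 there were 12, and without saline library 3 or 4 there were 3.

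The saline groups of dura, both single-end, differed in 6 genes, all higher at the unnamed site than in the temporal muscle group, where 4.25% of all genes were called, 2.24% higher and 2.01% lower. The median was 0.13 against -0.01, and 61 of 82 genes were above 0. Rpl22l1, the paralog of Rpl22, had 330.4, 355.5 and 377.6 TPM at the unnamed site (lowest, median and highest), against 256.4, 114.4, 86.05 and 219.1 TPM in the temporal muscle group (1.13 ± 0.20, adjusted p = 0.0026, edgeR). Temporal muscle libraries 2 and 3 were the lowest. The same 2 libraries were the lowest for Rpl39, with 522.4 and 454.1 TPM against 1009 and 926.5 TPM in libraries 1 and 4. Rpl39l, Rpl30, Rpl39, Rpl13 and Rps25 were the other genes called, at 1.71, 0.86, 0.84, 0.49 and 0.36 on the log2 scale.

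That count also moved with the fit. DESeq2 called 16 genes and the 2 groups alone 27, where they called 9.68% and 29.4% of all genes. Leaving out temporal muscle library 2 or 3 gave 2 and 1 calls, and leaving out library 1 or 4 gave 11 and 10. Leaving out unnamed-site library F1, F2 or M1 gave 2 calls each, and without M2 there was 1. Rpl30 shares sequence with Gm12191, and its sum with that copy was at -0.06.

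Between tissues, the direction of the ribosomal protein genes hung on the scaling. In masseter after saline at day 28 against dura after saline in the temporal muscle, 57 of 81 genes were called higher and 6 lower after TMM scaling, where 78.4% of all genes were called, 38.1% higher and 40.4% lower. Before that scaling, the mean CPM of 10 of the 81 genes was higher in masseter and that of 71 was lower, and the 83 genes took 2.19% of all counts in masseter and 2.95% in dura. TMM scaling put the log2 fold changes a median of 0.88 above the log2 ratios of mean CPM. Both groups were single-end. The median TMM-scaled log2 fold change was 0.46, against -0.06 over all genes. On log2(TPM + 1) the split turned round, with limma calling 4 genes higher and 63 lower, where it called 16.5% of all genes higher and 66.3% lower, and a median of -0.54 against -0.81 over all genes. Set against the median of all genes, the ribosomal protein genes lay higher in masseter on both scales. In bulk tissue, fewer cells of a type and less RNA per cell cannot be told apart.

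Paralogs were among the genes that differed most between the tissues. Rpl3l had 651.6, 578.5, 835.5 and 697.1 TPM in masseter after saline at day 28, against 2.45, 5.61, 5.76 and 7.04 TPM in dura after saline in the temporal muscle (8.16 ± 0.34, adjusted p = 8.93e-11, edgeR). Rpl3 went the other way, with 178.1, 447.6, 178.4 and 248.3 TPM in masseter, against 1197, 1183, 1301 and 1405 TPM in dura (-1.33 ± 0.18, adjusted p = 1.02e-05, edgeR). Rpl3l made up 72.8% ± 11.5 of the pair's TPM in masseter and 0.404% ± 0.135 in dura (SD, n = 4 each). Rps27l, a paralog of Rps27 known as a p53 target, was higher in masseter, with 274.8, 260.8, 264.9 and 294 TPM against 191.4, 131.1, 122.7 and 140.3 TPM in dura (TMM-scaled 1.91 ± 0.13, adjusted p = 1.08e-08, edgeR). On log2(TPM + 1) the difference was 0.92 (adjusted p = 2.56e-06, limma).

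Rps2 was higher in masseter by 1.92 ± 0.12 on the TMM-scaled log2 scale (adjusted p = 2.35e-09) and Rpl22l1 by 1.82 ± 0.27 (adjusted p = 2.25e-05, edgeR). On log2(TPM + 1) the differences were 0.91 for Rps2 (adjusted p = 1.28e-07) and 0.95 for Rpl22l1 (adjusted p = 0.00406, limma). Rpl22 itself was at 0.66 ± 0.07 after TMM scaling and at -0.34 on log2(TPM + 1). Among the members lower in masseter was Rps4y2, a paralog of Rps4x that RefSeq has as a transcribed pseudogene. Rps4y2 had 9.83, 22.29, 8.7 and 19.39 TPM, against 99.61, 125.9, 75.32 and 152.1 TPM in dura (-1.96 ± 0.24, adjusted p = 4.13e-06, edgeR), with no overlap. Rpl39l, which is known from the testis, had 0.3, 0.22, 0.32 and 0.26 TPM in masseter, against 1.56, 2.9, 1.59 and 1.44 TPM in dura (-1.70 ± 0.43, adjusted p = 0.00243, edgeR). The masseter values of Rpl39l lie near the floor of 3 counts, so the size of this difference is uncertain.

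Rpl3l was high in dura in libraries that also held muscle markers. It had 340, 195 and 54.4 TPM in dura collagenase libraries 4, 8 and 7, and 1.57 to 5.11 TPM in the other 9. In those 3 libraries the 6 skeletal muscle markers summed to 55811, 24413 and 8495 TPM, against 124 to 514 TPM in the other 9 and 114.53 to 314 TPM after saline in the temporal muscle. None of the 6 markers was at 0 throughout a dura group. Against saline in the temporal muscle Rpl3l was at 3.58 ± 1.65 and not called (adjusted p = 0.113). Without collagenase libraries 1, 4, 7 and 8, those that stood apart by muscle markers or Gad1, it was lower, at -0.86 (adjusted p = 0.048, edgeR). The 4 were chosen after the data were seen and include the 3 libraries with the highest Rpl3l. Leaving them out thus lowers Rpl3l by that choice, and no direction is drawn from this fit. Against saline at the unnamed site the called 4.91 became 0.47 (adjusted p = 0.228) without them. The same 4 libraries left out gave 12 genes higher and 31 lower against saline in the temporal muscle, where 18.3% of all genes were higher and 15.9% lower. With the offset they gave 43 higher and 10 lower, where 15.9% of all genes were higher and 14.8% lower.

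In masseter the balance of Rpl3 and Rpl3l varied between groups. Rpl3 made up 25.1%, 22.3% and 30.3% of the pair's TPM after collagenase in the masseter at day 38, against 17.2%, 18.1%, 17.4% and 14.5% after saline at day 38. The groups did not overlap, with means of 25.9% ± 4.07 and 16.8% ± 1.59 (SD, n = 3 and 4). The exact two-sided permutation test gave p = 0.0571, the smallest that 3 against 4 libraries allow, and 0.143 adjusted over the 5 masseter comparisons made. Rpl3 had 247.4, 191.2 and 216 TPM after collagenase, against 159.5, 169.9, 181.1 and 139.2 TPM after saline. Rpl3l had 737.3, 667.5 and 497.2 TPM, against 770.4, 770.7, 858.7 and 824 TPM. Neither gene was called, with Rpl3 at 0.63 ± 0.25 (adjusted p = 0.204) and Rpl3l at -0.16 ± 0.12 (adjusted p = 0.527, edgeR).

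At day 52 Rpl3 made up 22.8% ± 5.17 of the pair, and after collagenase in the temporal muscle at day 28 it made up 19.2% ± 2.25 (SD, n = 3 each), both overlapping saline at day 38 (exact permutation p = 0.229 each). Saline at day 28 had the widest spread, 27.2% ± 11.5 (n = 4), with Rpl3 at 447.6 TPM in library 2 against 178.1 to 248.3 TPM in the other 3. Saline at day 38 and at day 28 overlapped, and the exact permutation p was 0.0571, where 4 against 4 libraries allow 0.0286.

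**Figure D5:**
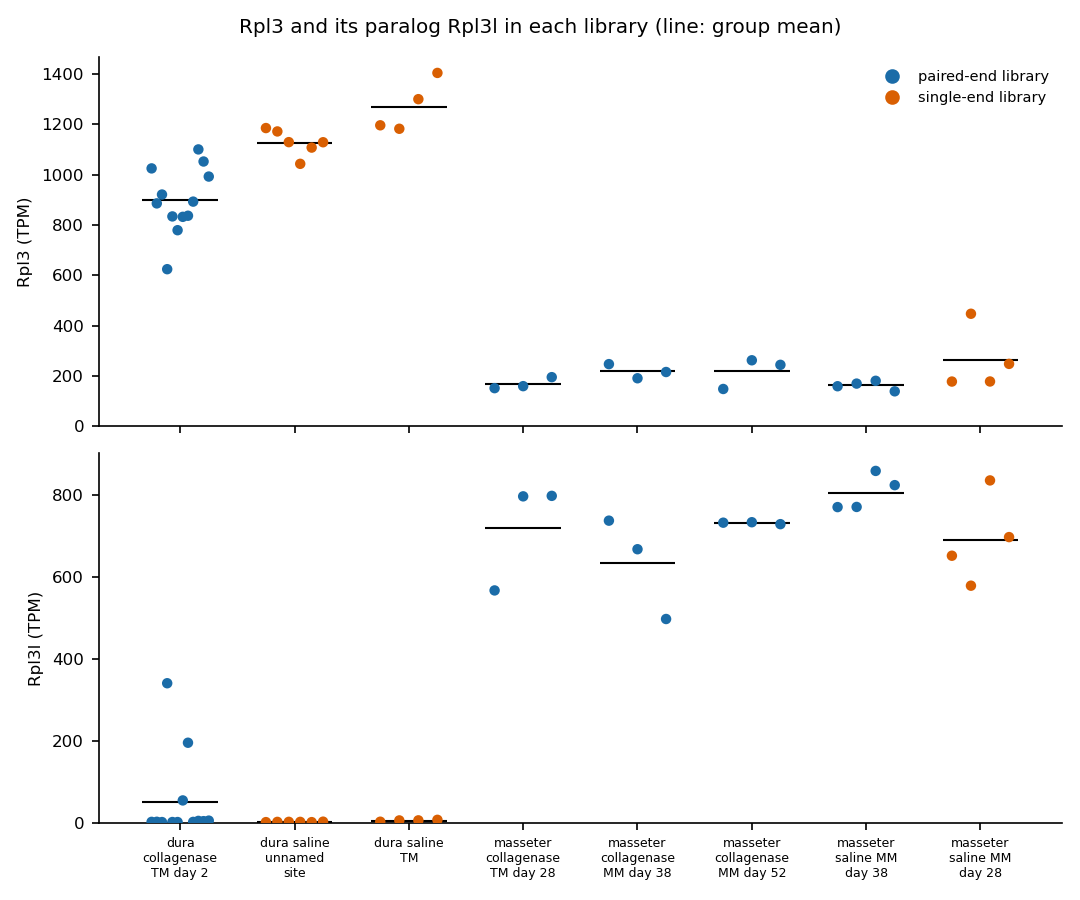
TPM of Rpl3 (top) and Rpl3l (bottom) in each library by group, with group means as lines; blue points are paired-end and orange points single-end libraries. Rpl3l lies at 497.2 to 858.7 TPM in the paired-end masseter libraries and below 10 TPM in dura, except for 3 dura collagenase libraries at 54.4, 195 and 340 TPM.

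Genes of the comparison lists were also called in the contrasts across layouts. In dura after collagenase against saline in the temporal muscle, 3 of 76 mitochondrial ribosomal protein genes were higher and 24 lower, 5 of 34 ribosome biogenesis genes were higher and 4 lower, and 4 of 20 translation factors were higher and 4 lower. The same test called 13.3% of all genes higher and 11.1% lower. Neutrophil markers summed to 1330 TPM at the median of the collagenase libraries and 4203 TPM at the median of the saline libraries, and their part in these values was not tested. In masseter saline at day 38 against day 28, 2 mitochondrial ribosomal protein genes were higher and 16 lower. Over all genes 11.7% were higher and 12.9% lower. Between masseter and dura after saline, 71 of the 76 mitochondrial genes were called higher and 2 lower after TMM scaling. Over all genes 38.1% were higher and 40.4% lower. That scaling put the log2 fold changes of the ribosomal protein genes a median of 0.88 above their unscaled log2 ratios.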

How the data were processed

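RSEM wrote the files: the deposited expected count of a gene is an estimate that need not be whole, and the deposited TPM is scaled per M transcripts of the library, per the file headers. FPKM values were deposited as well and were left aside. The submitters' processing notes name bcl2fastq, Trim Galore, RSEM and the build mm10; which versions, aligner and annotation were used, the sources used here do not give. Libraries were made with a stranded kit after oligo-dT selection, per the labels' protocols.

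Layout was read from each library's median gap between a gene's length and effective length (genes with more than 50 expected counts), divided at 60 bases. Expected counts were rounded and fitted once per tissue, and once for the 14 single-end libraries, with edgeR 4.0.16 (filterByExpr, TMM, quasi-likelihood test; R 4.3.3) on group alone. Benjamini-Hochberg adjustment ran over all genes tested, and the threshold was 0.05. The fit was tested on simulated data. Alternatives were DESeq2 1.42.0, limma 3.58.1 on log2(TPM + 1), other scaling and filters, an effective length offset, copies summed into genes, the 2 groups alone, a replicate block and each library left out. The offset with summed copies and the fits without dura collagenase libraries 1, 4, 7 and 8 were added after seeing the data. Pandas 2.3.3, scipy 1.17.1 and Biopython 1.88 were used. Transcripts of GENCODE vM21 gave the shared windows and coding alignments; all 88 members had one. Intervals and floors (3 counts) cover counting error only. Of 108 pairs of libraries within groups, none agreed within sampling noise (chi-square per gene 15.6 to 592).

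The members and lists were chosen with earlier results of these data known. Named genes were the paralog pairs, the stalk genes, the 5 most abundant genes, the pseudogenes with their genes, Rpl26, and in each comparison the 5 called members with the largest change each way. Rps6, Rps19, Rps25 and the copies named Gm were chosen after their values were seen where that rule does not name them. Near-identical copies are uncertain throughout, because RSEM divides ambiguous reads.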

Additional observations from a re-analysis of the deposited data

Results flagged for a closer look

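In groups of 4 to 10 libraries, 8 of 168 sets of TPM values held a library farther from the others than Dixon's test allows at the 95% level, which chance gives in about 1 in 20 sets. In dura after saline in the temporal muscle, Rpl21 had 400.72 TPM in library 3 (the others 276.53 to 295.38), Rpl39l had 2.9 TPM in library 2 (1.44 to 1.59), and Rpl34-ps1 had 306.62 TPM in library 1 (0 to 28.97). In masseter after saline at day 38, Rpl36a had 453.15 TPM in library 1 (408.79 to 411.81), Rps15a-ps4 had 1.18 TPM in library 1 (0.15 to 0.31), Rps29 had 1413.73 TPM in library 2 (1545.25 to 1569.57), and Rpl31-ps12 had 4.32 TPM in library 4 (2.18 to 2.39). In masseter after saline at day 28, Rpl28 had 1215.38 TPM in library 1 (1441.11 to 1481.05).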

How the results depend on the processing

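Counts of called ribosomal protein genes moved by over 1.5 times under these settings. Dura collagenase against saline in the temporal muscle (28 called) gave 43 without collagenase libraries 1, 4, 7 and 8, and 53 with the offset as well. Against saline at the unnamed site (51) the offset gave 33, and 30 with copies summed. The dura saline groups (6) gave 16 by DESeq2 and 27 alone. Masseter collagenase at day 38 (2) gave 33 by DESeq2, 0 by limma on log2(TPM + 1), 1 without the low-count filter and 0 with the 2 groups alone, and day 52 (0) gave 3 by DESeq2. Masseter of temporal muscle collagenase against saline at day 38 (6) gave 16 by DESeq2 and 2 by limma, and against saline at day 28 (13) the offset gave 26, offset with copies 24 and the 2 groups alone 4. Masseter saline at day 38 against day 28 (50) gave 18 by limma and 31 with the 2 groups alone.

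Whether replicate numbers pair the libraries was not tested, and 4 values per contrast cannot show it. Same-numbered libraries correlated at -0.200, -0.048, -0.089 and 0.128 in dura, -0.263, -0.081, 0.237 and -0.206 between the masseter saline groups, and 0.016, -0.007, -0.129 and -0.002 between tissues. Differently numbered libraries reached -0.385 and 0.403 in dura and -0.464 and 0.447 between the masseter saline groups. With libraries 1 to 4 of both groups and no block, dura gave 3 calls, masseter saline 31 and the tissue contrast 46. With the replicate block these were 1, 10 and 35. Pseudogenes called in dura (5) were 3 without the block and 1 with the replicate block.

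With 1 library left out the calls ran from 23 to 38 and 42 to 56 in dura after collagenase (temporal muscle and unnamed site), 1 to 11 between the dura saline groups, 0 to 27 at day 38, 0 to 0 at day 52, 1 to 12 and 9 to 14 after collagenase in the temporal muscle (saline at day 38 and day 28), 33 to 53 between the masseter saline groups and 59 to 66 between tissues. Pseudogenes called ran from 4 to 5 in both contrasts counted. Named results that were called numbered 94. In other settings 773 of their 957 values kept direction and call, 123 lost the call and 61 changed sign; with 1 library left out 884 of 972 kept both, 88 lost the call and 0 changed sign.

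Log2 fold changes that changed sign follow. In dura collagenase against saline in the temporal muscle, leaving out libraries 1, 4, 7 and 8 gave -0.86 for Rpl3l, and with the offset -0.89 for Rpl3l, 0.13 for Rpl41, 0.049 for Rplp1, 0.55 for Rplp2, 0.30 for Rps15 and 0.58 for Rps29. The offset alone gave 0.044 for Rpl41, 0.0072 for Rplp1, 0.52 for Rplp2 and 0.58 for Rps29. Limma gave 0.46 for Rplp2 and 0.56 for Rps29. Named pseudogenes summed gave -0.16 for Rpl31 and -0.27 for Rps15a, and all copies summed gave the same with -0.27 for Rpl26 and -0.36 for Rpl30. Copies with the offset gave 0.045 for Rpl41, 0.0073 for Rplp1, 0.54 for Rplp2, -0.35 for Rps15a and 0.58 for Rps29. Against the unnamed site, copies gave -0.33 for Rpl26 and -0.40 for Rpl31, and -0.13 for Rpl31 with the offset. Between the dura saline groups, copies gave -0.063 for Rpl30, and -0.062 with the offset.

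In masseter saline at day 38 against day 28, the offset gave 0.30 for Rpl28, 0.29 for Rpl38, 0.36 for Rpl39, 0.041 for Rpl41, 0.49 for Rplp2, 0.24 for Rps15, 0.36 for Rps27l and 0.75 for Rps29. Limma gave 0.11 for Rpl28, 0.10 for Rpl38, 0.17 for Rpl39, 0.054 for Rps15 and 0.57 for Rps29. Summed copies gave -0.22 for Rpl26, -0.31 for Rpl31 and -0.37 for Rps15a. Copies with the offset gave the offset's values for Rpl28, Rpl38, Rpl39, Rpl41, Rps15, Rps27l and Rps29, with 0.48 for Rplp2, -0.14 for Rpl31, -0.45 for Rps15a and 0.42 for Rps27. In masseter of temporal muscle collagenase against saline at day 28, copies gave -0.20 for Rpl31, and -0.032 with the offset, while Rpl22l1 was 0.0033 with the offset and 0.014 with copies as well. In masseter against dura after saline, copies gave 0.27 for Rps27, and 0.28 with the offset. Limma gave -0.34 for Rpl22, -0.24 for Rpl28, -0.073 for Rpl31, -0.96 for Rpl31-ps12, -0.32 for Rpl39, -0.82 for Rpl7, -0.47 for Rpl7l1, -0.079 for Rplp0, -0.69 for Rplp1, -0.43 for Rplp2, -0.62 for Rps15, -0.57 for Rps15a, -0.57 for Rps15a-ps6, -0.43 for Rps19 and -0.65 for Rps4x. The cause of these changes was not tested. Layout is confounded with collagenase in dura and with day in masseter saline, and 3 or 4 libraries per masseter group limit what can be called.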
